A study of Homo sapiens with 4 samples.

Results

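The genes encoding the proteins of the cytosolic ribosome were followed before and after chemotherapy in BT-16 and in CHLA-266, which the labels class as AT/RT-MYC. Members were chosen by symbol alone, as *RPL* or *RPS* with a number, the stalk genes *RPLP0*, *RPLP1* and *RPLP2*, and *RPSA*, without the kinase genes starting with *RPS6K* and without *RPS19BP1*. This gave 83 of the 18449 gene symbols in the count table. Of these, 73 were core genes (43 of the large and 30 of the small subunit), 8 were paralogs whose symbols carry an L after the number, and 2 were readthrough genes. BT-16 and CHLA-266 are patient-derived lines of atypical teratoid/rhabdoid tumor (AT/RT), a malignant brain tumor of early childhood that in most cases has lost *SMARCB1*. Treated cells received 1 µM doxorubicin, 5 µM etoposide and 1 µM vincristine on consecutive days. Most of them died, and cells were harvested after resistant cells grew again, weeks after treatment. Untreated cells received none of these agents. Each line gave 1 untreated and 1 treated library, so each condition held 2 libraries, the cell lines stood in for replicates, and *p* values measure the spread between these libraries only.

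A cytosolic ribosome carries one copy of nearly every core protein, placed on ribosomal RNA that RNA polymerase I makes in the nucleolus. Most messengers of these proteins begin with a C and a run of pyrimidines, the 5′ terminal oligopyrimidine (TOP) motif, through which LARP1 and the mTOR pathway control their translation and stability. MYC raises the transcription of ribosomal protein genes, assembly factors and RNA polymerase I genes, and dividing tumor cells are known for high ribosome production. A few core genes have paralogs with a narrower tissue range, such as *RPL3L* in striated muscle and *RPL10L* and *RPL39L* in testis.

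The libraries held 49849258 to 75087194 counts, and the treated library was the smaller in each line. Counting error was small for the abundant core genes, and the number of libraries limited precision more than depth did. The line markers were as follows: *SMARCB1* had 827 to 1394 counts, *SMARCA4* 29429 to 59447 and *MYC* 6804 to 14275, whereas *HOXC6*, *HOXC8* and *HOXC10* had 0 to 76. The *HOXC* genes were chosen as markers of AT/RT-MYC and were near the floor. *SMARCB1*, chosen as low or absent, was counted in every library. The class AT/RT-MYC is taken from the labels and was not tested. Of 8 markers of leukocytes, endothelium, fibroblasts and hepatocytes, 2 were higher after treatment and 0 lower. Over all genes tested 16.1% were higher and 19.1% lower. The 2 markers were *VWF* (40 to 45 counts before, 216 to 405 after) and *COL3A1* (0 before, 8 and 66 after). With the cell line as a block 3 markers were higher, now including *COL1A1*, against 3234 of all 18066 genes. Counts of *COL1A1* were 496 and 186 before and 779 and 305 after treatment (BT-16 first). *PECAM1* (4 to 13 before, 44 to 45 after) and *ALB* (0 before, 6 and 20 after) passed in neither fit. Of the leukocyte markers *PTPRC* had 287 counts before and 167 after treatment of BT-16, and 30 and 64 in the other line. *CD68* and *CD14* had at most 22 in any library. *MKI67*, made in dividing cells, had 109853 and 96814 counts before and 1262 and 1386 counts after treatment (BT-16 first). Mitochondrially encoded genes took 3.59% and 4.98% of the counts before and 10.5% and 8.93% after treatment. The number of genes detected was 16079 and 15464 before and 17815 and 17114 after. The part of these differences in the results that follow was not tested, and in bulk RNA a lower level per cell and fewer cells with a high level cannot be told apart.

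The start of a ribosomal protein messenger carries its TOP motif, so the annotated starts of genes with large and small changes are shown here. Each line gives 30 bases of the RefSeq annotation of GRCh38.p14 from 5′ to 3′ on the strand of the gene, with 15 bases before the start site and 15 from it on. Capitals mark an unbroken run of C and T that begins with a C at the start site and holds at least 5 bases. Sequences without capitals have no such run.
RPL35 (chr9:124861943-124861972, minus strand): agccccgcctacttcCTCTTTCCCTCggag
RPL36 (chr19:5690280-5690309, plus strand): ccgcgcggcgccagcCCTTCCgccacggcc
RPS28 (chr19:8321481-8321510, plus strand): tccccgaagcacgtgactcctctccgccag
RPS7 (chr2:3575245-3575274, plus strand): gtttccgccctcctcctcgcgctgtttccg
RPL12 (chr9:127451392-127451421, minus strand): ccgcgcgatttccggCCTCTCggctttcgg
RPL13A (chr19:49487593-49487622, plus strand): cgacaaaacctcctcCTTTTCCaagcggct
RPL22 (chr1:6199581-6199610, minus strand): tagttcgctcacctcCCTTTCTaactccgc
RPL22L1 (chr3:170870181-170870210, minus strand): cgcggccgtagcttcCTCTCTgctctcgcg
RPS27 (chr1:153990747-153990776, plus strand): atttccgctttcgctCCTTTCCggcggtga
RPS27L (chr15:63157463-63157492, minus strand): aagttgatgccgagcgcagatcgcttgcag
*RPL35*, *RPL36*, *RPS28* and *RPS7* had the lowest log2 fold changes of the core genes and *RPL12*, *RPL13A* and *RPL22* the highest. The last lines set a parent gene beside its paralog.

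After treatment, 60 of the 82 members with counts were downregulated DEG and 0 were upregulated (quasi-likelihood test of edgeR, threshold 0.05 for the adjusted *p*). Over all 18066 genes tested, 19.1% were downregulated and 16.1% upregulated. Every member had a negative log2 fold change with TMM normalization, so 0 were higher at an unadjusted *p* under 0.05 in edgeR as well, and DESeq2 also called 0 higher. Among the 73 core genes, 55 passed, 28 of 43 in the large and 27 of 30 in the small subunit. The median log2 fold change was -0.68 for the core genes, -0.63 for the large and -0.75 for the small subunit, against 0.24 for all genes tested. With the cell line as a block, 70 members passed, 64 of them core genes, against 23.7% of all genes. The 64 were 35 of 43 in the large and 29 of 30 in the small subunit. With upper-quartile normalization 7 of 43 and 6 of 30 passed, where 10.5% of all genes were downregulated.

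Scaling shifted all genes together. With TMM all 73 core genes had a negative log2 fold change, but the number was 65 with upper-quartile normalization and 71 with library totals, and the core genes that passed were 13 and 30, where 10.5% and 13% of all genes were downregulated. The median of the core genes lay 0.92 below that of all genes with TMM and 0.91 below it with either of these scalings, whereas it lay 0.50 below with the 12620 genes that had at least 10 counts in every library, where 35 core genes and 20.2% of all genes were downregulated. Without the untreated BT-16 library, 19 core genes passed instead of 55 (12.9% of all genes), and 45 to 51 passed without each of the other libraries in turn (14% to 18.8% of all genes).

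**Figure D1:**
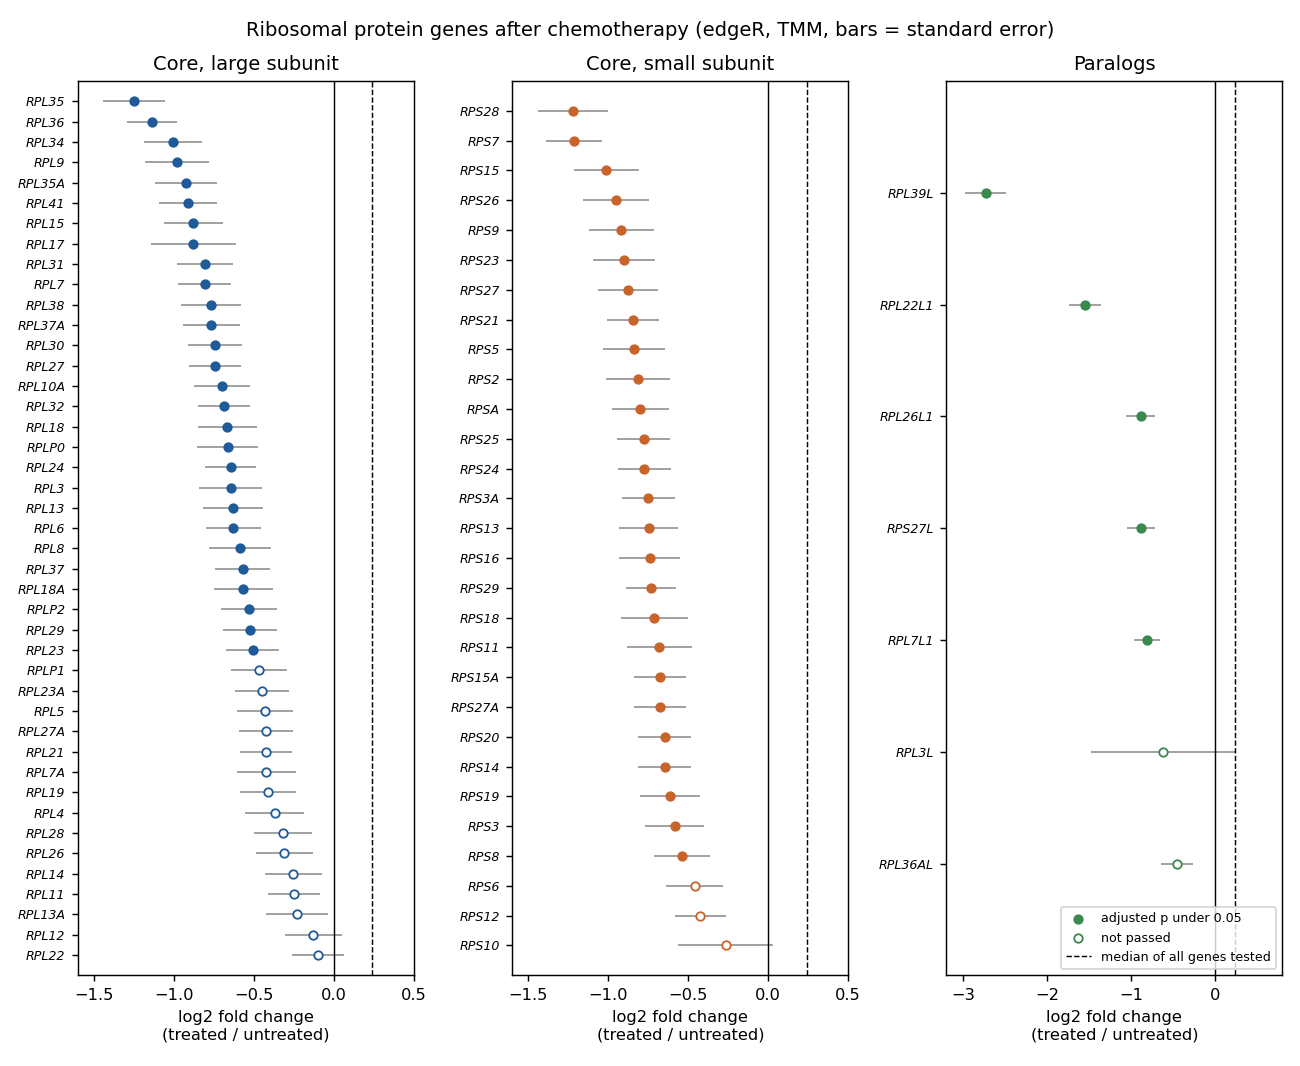
Log2 fold change of each core gene of the large subunit, the core genes of the small subunit except 1 not reported here and each paralog except *RPL10L*, with horizontal bars for the standard error from edgeR (2 treated against 2 untreated libraries). Filled points passed an adjusted *p* value of 0.05, open points did not, and the dashed line marks the median of all genes tested (0.24); all points lie below 0 with TMM normalization, whereas 65 of the 73 core genes do with upper-quartile normalization and 71 with library totals.

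The core genes with the lowest log2 fold changes came from both subunits. *RPL35*, a protein at the exit of the peptide tunnel, had 1410 CPM in the untreated and 560 in the treated BT-16 library, and 1082 and 486 CPM in CHLA-266. CPM stands here for counts scaled by library size and TMM factor, and the untreated library comes first in each pair of values. Both treated libraries lay below both untreated ones, and the log2 fold change was -1.25 (standard error 0.19, edgeR adjusted *p* = 0.00195). *RPS28*, a small protein near the exit of the messenger channel, had 154 and 59.8 CPM in BT-16, and 102 and 50.1 CPM in the other line (log2 fold change -1.22, standard error 0.22, edgeR adjusted *p* = 0.00386). The untreated libraries of *RPS28* were farther apart than those of *RPL35* in relation to their level, yet the conditions did not overlap.

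*RPS7*, a small subunit protein, had 1024 and 432 CPM in BT-16, and 883 and 390 CPM in the other line (log2 fold change -1.21, standard error 0.17, edgeR adjusted *p* = 0.00132). *RPL36* had 429 and 196 CPM in BT-16 and 411 and 186 CPM in CHLA-266, the closest match of the lines among these genes (log2 fold change -1.14, standard error 0.16, edgeR adjusted *p* = 0.00115). *RPS15*, a protein of the small subunit head, had 637 and 276 CPM in BT-16 and 445 and 259 CPM in CHLA-266. Its log2 fold change was -1.01 and moved between -1.25 and -0.73 when single libraries were left out. In all 5 genes the treated libraries were the lower ones.

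At the other end, *RPL22*, *RPL12* and *RPL13A* were the 3 core genes whose conditions overlapped. *RPL22*, known to bind the RNA of its own paralog, had 143 and 120 CPM in BT-16, and 137 and 141 CPM in the other line (log2 fold change -0.10, standard error 0.16, edgeR adjusted *p* = 0.632). *RPL12*, at the base of the stalk, had 1490 and 1300 CPM in BT-16, and 1235 and 1192 CPM in the other line (log2 fold change -0.13, standard error 0.18, edgeR adjusted *p* = 0.579). *RPL13A* had 4289 and 3096 CPM in BT-16, and 3356 and 3407 CPM in the other line (log2 fold change -0.23, standard error 0.19, edgeR adjusted *p* = 0.363). For *RPL22* and *RPL13A* the treated library was lower in BT-16 and slightly higher in CHLA-266, with TMM, and the sign of *RPL22*, *RPL12* and *RPL13A* was positive with upper-quartile normalization. In the other 70 core genes both treated libraries lay below both untreated libraries in TMM-normalized CPM, an order that 32.3% of all genes tested showed.

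The 18 core genes that did not pass included 15 of the large subunit and *RPS6*, *RPS10* and *RPS12* of the small subunit. Their log2 fold changes ran from -0.47 (*RPLP1*) to -0.10 (*RPL22*). With the cell line as a block, which called 23.7% of all genes lower, 9 more core genes passed, among them *RPL19*, *RPL5* and *RPS6*.

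The proteins of the stalk recruit the elongation factors to the ribosome. *RPLP0*, its base, had 3087 and 1684 CPM in BT-16, and 2397 and 1776 CPM in the other line (log2 fold change -0.66, standard error 0.19, edgeR adjusted *p* = 0.0272). *RPLP2* had 1747 and 1085 CPM in BT-16, and 1657 and 1267 CPM in the other line (log2 fold change -0.53, standard error 0.17, edgeR adjusted *p* = 0.0431). *RPLP1*, its partner in the stalk dimer, had 1220 and 787 CPM in BT-16 and 1027 and 834 CPM in CHLA-266, and did not pass (log2 fold change -0.47, standard error 0.17, edgeR adjusted *p* = 0.0639, 0.0134 with the block). In all of them the difference was larger in BT-16 than in CHLA-266, which could not be tested with 1 library per line and condition.

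*RPL5* and *RPL11* bind the 5S ribosomal RNA and, when free of the ribosome, the p53 regulator MDM2. *RPL5* had 2360 and 1615 CPM in BT-16, and 2335 and 1871 CPM in the other line (log2 fold change -0.43, standard error 0.18, edgeR adjusted *p* = 0.0866, 0.0216 with the block). *RPL11* had 990 and 842 CPM in BT-16, and 997 and 829 CPM in the other line (log2 fold change -0.25, standard error 0.16, edgeR adjusted *p* = 0.250, 0.179 with the block). The untreated libraries of each of these genes were nearly equal, and *RPL11* had the smaller difference.

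Among small subunit genes with a known second role, *RPSA*, also known as the laminin receptor gene, had 1098 and 584 CPM in BT-16, and 888 and 556 CPM in the other line (log2 fold change -0.80, standard error 0.18, edgeR adjusted *p* = 0.00985). *RPS27A*, which is made as a fusion with ubiquitin, had 713 and 459 CPM in BT-16, and 682 and 414 CPM in the other line (log2 fold change -0.68, standard error 0.16, edgeR adjusted *p* = 0.0139). *RPS6*, the substrate of the S6 kinases, had 2372 and 1579 CPM in BT-16, and 2013 and 1608 CPM in the other line (log2 fold change -0.46, standard error 0.18, edgeR adjusted *p* = 0.0718, 0.0162 with the block). Of these genes, *RPSA* and *RPS27A* fell and *RPS6* passed with the block and in DESeq2 (adjusted *p* = 0.0322) but not in edgeR without the block.

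Levels between genes were compared as TMM-normalized CPM per kilobase of coding sequence. *RPL13A* had the highest level, with 5083 to 7043 over the 4 libraries, and *RPLP2* followed with 3144 to 5065. The next were *RPL19* (2406 to 3592) and *RPLP1* (2301 to 3567), whose ranges largely coincided. In the small subunit the order began with *RPS6* (2114 to 3175), *RPS24* (1636 to 2940) and *RPS20* (1432 to 2447), and the ranges of these neighbours overlapped. *RPL22* (313 to 373) stood low among core genes, and lower still were *RPS10* (12.5 to 16.02) and *RPL17* (15.1 to 34.9). Both genes share most of their annotated exon bases with another gene on the same strand, 84.0% in *RPS10* (with *RPS10-NUDT3*) and 96.9% in *RPL17* (with *RPL17-C18orf32*), so their counts are uncertain. The readthrough genes themselves had 1 and 0 counts in all 4 libraries together.

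The core genes took 6.47% of all counts before and 4.91% after treatment in BT-16, and 5.62% before and 4.53% after in CHLA-266. The exact binomial 95% intervals reached at most 0.00590 percentage points to either side and cover counting error only. The mean difference was -1.32 percentage points (untreated SD 0.602, treated SD 0.267, n = 2 each), and the conditions did not overlap. An exact two-sided permutation test gave *p* = 0.333, the smallest value that 2 against 2 libraries allow. With mitochondrially encoded genes left out of the total, the difference was -1.08 points.

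Both subunits lost share, the large subunit from 4.47% to 3.48% in BT-16 and from 3.93% to 3.32% in CHLA-266, and the small subunit from 2.003% to 1.43% and from 1.69% to 1.22%. Summed counts per kilobase of exon gave a log2 ratio of large to small subunit that went from 0.83 to 0.93 in BT-16 and from 0.87 to 1.12 in CHLA-266. The ratio was thus higher after treatment in each line and does not depend on scaling. The mean difference was 0.17 (untreated SD 0.03, treated SD 0.13, n = 2 each, exact two-sided permutation *p* = 0.333). It was 0.16 with coding length, 0.16 with medians in place of sums, 0.14 without *RPL13A*, and 0.17 without the genes that share most of their exons with another gene. Single libraries moved it more, to 0.082 without treated CHLA-266 and 0.27 without treated BT-16.

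**Figure D2:**
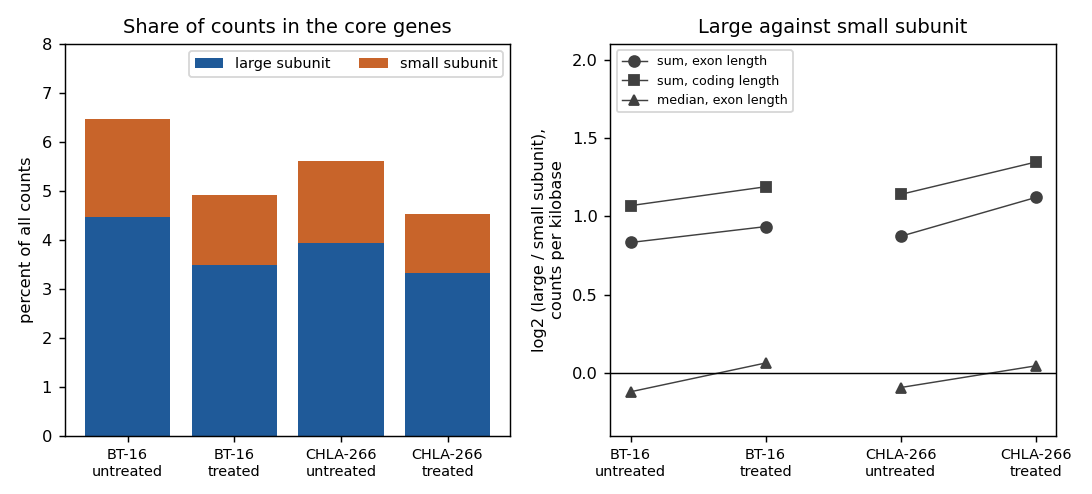
The left panel shows the percent of all counts in core genes of the large and small subunit in each of the 4 libraries, as stacked bars that reach 6.47, 4.91, 5.62 and 4.53. The right panel shows the log2 ratio of large to small subunit counts per kilobase in the same libraries by 3 ways of computing it, each of which was higher in the treated library of both lines.

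Each line was also looked at alone, as the log2 ratio of its TMM-normalized counts after and before treatment. In BT-16 all 73 core genes were lower after treatment, with a median of -0.73, and in CHLA-266 71 were lower, with a median of -0.65. The large subunit had a median of -0.67 in BT-16 against -0.49 in CHLA-266, and the small subunit of -0.74 against -0.73. The small subunit thus had nearly the same median in both lines, whereas that of the large subunit was closer to 0 in CHLA-266. Over all genes tested the medians were 0.19 and 0.24. Across the 73 core genes the ratios of the lines had a Spearman rho of 0.64 and a Pearson *r* of 0.71. Genes are not independent replicates, and each ratio rests on 1 library per condition.

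**Figure D3:**
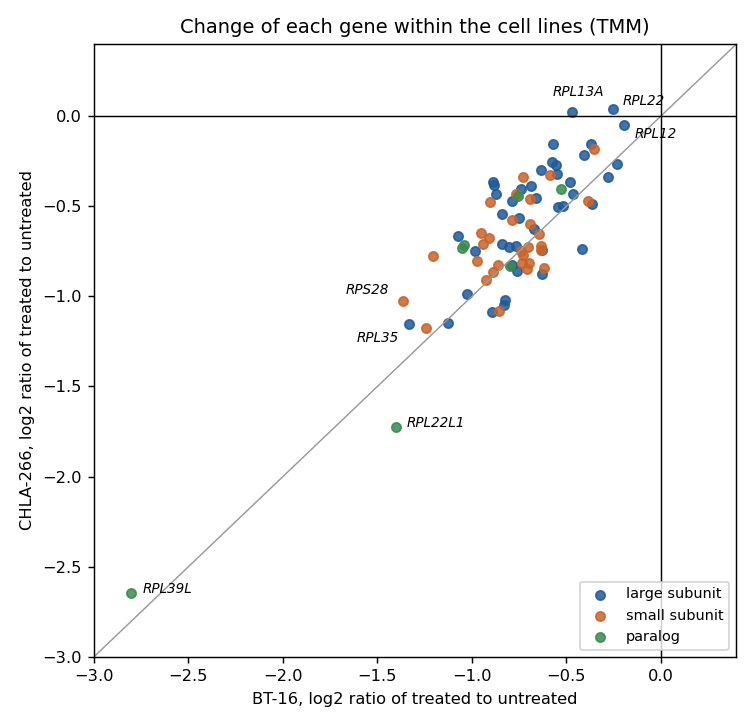
Log2 ratio of treated to untreated TMM-normalized counts of each core gene and each paralog except *RPL10L* in BT-16 (horizontal axis) and CHLA-266 (vertical axis). Large subunit, small subunit and paralog genes have different colors, and the line of equal change is gray. All 73 core genes lie between -1.37 and -0.20 in BT-16, *RPL22* and *RPL13A* lie above 0 in CHLA-266, and *RPL39L* and *RPL22L1* lie apart from the core genes. These values use TMM, and another scaling shifts all points together.

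The core genes with the highest mean CPM tended to change least, and more so in CHLA-266. Mean CPM is not divided by length here, and the level per kilobase was not set against the ratio. Over the 73 core genes, the log2 ratio had a Spearman rho with mean CPM of 0.24 for BT-16 against 0.53 for CHLA-266, and with coding length of 0.06 against 0.47. The mean CPM shares its libraries with the ratio, and these are descriptions across genes. Core genes that host a small nucleolar RNA gene in the annotation, which guides the modification of ribosomal RNA, numbered 26, had a median log2 fold change of -0.57 and included 17 downregulated genes. The other 47 had a median of -0.74, with 38 downregulated. The number of pseudogenes named after a core gene ran from 1 to 133 and had a rho of 0.02 with its log2 fold change. How reads that match several copies were counted is not given in the sources used here, so levels of genes with many near-identical copies are uncertain.

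Of the 8 paralogs, 5 were downregulated and 0 upregulated, where 19.1% and 16.1% of all genes tested were. The median log2 fold change over the paralogs was -0.89, against 0.24 for all genes. It takes in *RPL3L* and *RPL10L*, which had few counts. *RPL39L*, the testis paralog of the tunnel protein RPL39 (chr3:187120948-187180908, GENCODE 44 on hg38, minus strand), had 2092 counts before and 251 after treatment of BT-16, and 1548 before and 208 after treatment of CHLA-266. The conditions were far apart and the lines close together, with a log2 fold change of -2.73 (standard error 0.24, edgeR adjusted *p* = 0.000110). This was below every core gene, the lowest of which had -1.25.

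*RPL22L1*, the paralog of *RPL22* (chr3:170864875-170870208, GENCODE 44 on hg38, minus strand), had 435 and 165 CPM in BT-16 and 408 and 123 CPM in CHLA-266. Its log2 fold change was -1.55 (standard error 0.19, edgeR adjusted *p* = 0.000606), while *RPL22* itself did not pass. Relative to *RPL22*, its counts went from 304% to 137% in BT-16 and from 297% to 87.2% in CHLA-266. The untreated lines thus had nearly the same excess of the paralog, and after treatment the paralog still exceeded its parent in BT-16 and was below it in CHLA-266. The mean difference of the log2 ratio was -1.46 (untreated SD 0.03, treated SD 0.46, n = 2 each, exact two-sided permutation *p* = 0.333, 0.833 adjusted over 5 pairs). A ratio within a library does not depend on scaling, and 2 against 2 libraries allow no smaller *p* than 0.333. The parent shares 11.2% of its exon bases with another annotated gene on the same strand.

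*RPL26L1* had 120 and 58.0 CPM in BT-16, and 96.3 and 58.7 CPM in the other line (log2 fold change -0.89, standard error 0.17, edgeR adjusted *p* = 0.00511). *RPL26*, whose protein binds the messenger of p53, had 313 and 258 CPM in BT-16 and 385 and 304 CPM in CHLA-266 and did not pass (log2 fold change -0.31, edgeR adjusted *p* = 0.203). The paralog went from 38.2% to 22.5% of the counts of its parent in BT-16 and from 25.0% to 19.3% in CHLA-266. The share was lower after treatment in each line and the conditions did not overlap (exact two-sided permutation *p* = 0.333 on the log2 ratio, n = 2 each, 0.833 adjusted over 5 pairs). *RPL26* shares 65.3% of its exon bases with another gene, so this ratio is uncertain.

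*RPS27L*, a known target of p53, had 165 and 79.7 CPM in BT-16, and 163 and 98.2 CPM in the other line (log2 fold change -0.89, standard error 0.17, edgeR adjusted *p* = 0.00512). *RPS27* fell alongside, from 549 to 297 CPM in BT-16 and from 445 to 244 CPM in the other line (log2 fold change -0.88, standard error 0.19, edgeR adjusted *p* = 0.00821). The paralog had 30.1% of the counts of *RPS27* before and 26.8% after treatment in BT-16, against 36.7% before and 40.2% after in CHLA-266, so the lines went opposite ways and the conditions overlapped.

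*RPL7L1* had 209 and 120 CPM in BT-16, and 209 and 117 CPM in the other line (log2 fold change -0.82, standard error 0.15, edgeR adjusted *p* = 0.00483). *RPL7* had 1044 and 604 CPM in BT-16, and 982 and 553 CPM in the other line (log2 fold change -0.81, standard error 0.17, edgeR adjusted *p* = 0.00712). The ratio stayed between 19.9% and 21.3% in all libraries, and its log2 difference was -0.01 (untreated SD 0.06, treated SD 0.06, n = 2 each). Both genes thus fell by nearly the same factor.

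The remaining paralogs did not pass. *RPL36AL* had 359 and 249 CPM in BT-16, and 425 and 321 CPM in the other line (log2 fold change -0.46, standard error 0.19, edgeR adjusted *p* = 0.0882, 0.0105 with the block). *RPL3L* counts were 57 before and 28 after treatment in BT-16, 39 before and 24 after in CHLA-266, and stayed near 0.024% of the counts of *RPL3* (log2 fold change -0.62, standard error 0.86). *RPL10L* had 2 counts in untreated CHLA-266 cells and 0 in the other libraries, too few for a fold change. The muscle gene *RPL3L* was thus counted at a low level in every library, and the testis gene *RPL10L* was seen in 1 library.

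**Figure D4:**
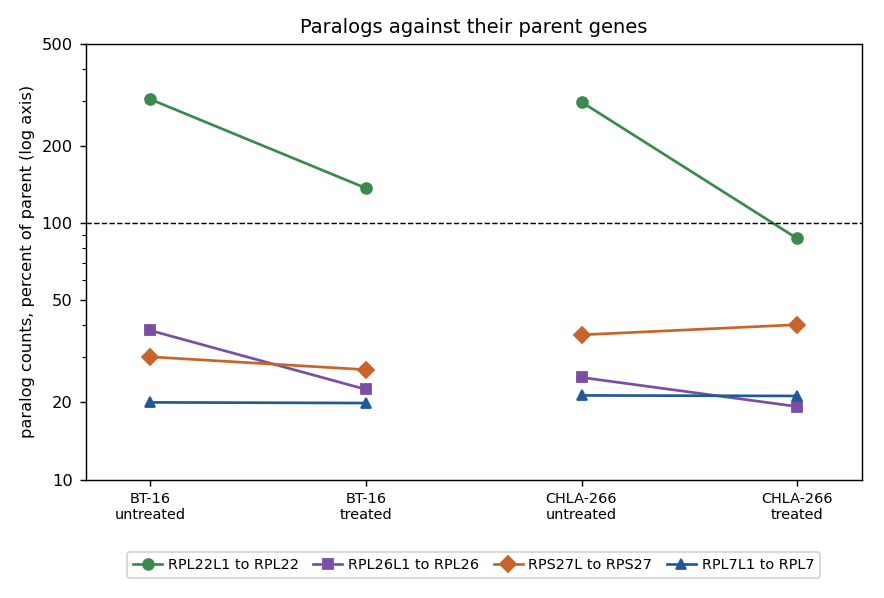
Counts of 4 paralogs as a percent of the counts of their parent gene in each library, on a log axis, with lines joining the untreated and treated library of a cell line and a dashed line at 100%. *RPL22L1* fell from 304% to 137% of *RPL22* in BT-16 and from 297% to 87.2% in CHLA-266, while *RPL7L1* stayed between 19.9% and 21.3% of *RPL7*.

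A start with a C and a run of at least 5 pyrimidines, as shown above for *RPL35*, was found at a listed RefSeq start of 43 of the 58 core genes with a promoter entry (74.1%), against 5.14% of 27305 genes. Of 6 paralogs with an entry, *RPL22L1* alone had such a start. Genes with several listed starts had more chances of a match. The 43 core genes with such a start had a median log2 fold change of -0.66 and 29 passed, and the 15 without had a median of -0.75 and 13 passed. The core genes at both ends of the order, *RPL35* and *RPL22*, had such a start, and the downregulated *RPS28* and *RPS7* had none.

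Letters of 5 other motifs were searched on both strands of each promoter entry, which runs from before the start to shortly after it. The background here is the 27305 genes with a promoter entry, which include symbols outside the count table and are not matched for level. CTTCCG, the core of ETS family sites, stood in 62.1% of the 58 core genes and 22.6% of these 27305 genes. GGGCGG, bound by SP1, stood in 55.2% and 48.3%, and CACGTG, the E-box of MYC and MAX, in 6.90% and 8.77%. TATAAA stood in 8.62% and 14.0%, and AAGATGGC, bound by YY1, in 10.3% and 3.52%. In 69 mitochondrial ribosomal protein genes these shares were 55.1%, 60.9%, 13.0%, 4.35% and 30.4%, in the same order of motifs. A match is a run of letters and not evidence of binding.

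Between the cell lines, with the condition as a term, edgeR called 0 of the 82 members at the same threshold, against 2.3% of all genes. At an unadjusted *p* under 0.05, 11 members passed, 10 of them lower in CHLA-266. DESeq2 called 0 as well, with 17 at the unadjusted level, and edgeR with library totals called 5, all lower in CHLA-266. The share of all genes was not computed for the unadjusted level or for library totals, so these counts cannot be set against it. The median log2 difference of CHLA-266 to BT-16 was -0.11 for the large and -0.18 for the small subunit, against -0.05 for all genes.

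Other genes of the ribosome pathway were set beside the members in lists. Over all genes tested 19.1% were downregulated and 16.1% upregulated, with a median log2 fold change of 0.24. FAU, made as a fusion with a ubiquitin-like protein, and RACK1 are subunit proteins outside the symbol rule, and *FAU* and *RACK1* were downregulated. *FAU* had 27476 counts before and 13833 after treatment of BT-16, and 23983 before and 12262 after treatment of CHLA-266. Of 14 translation and other genes known for TOP messengers (the TOP list), 5 were downregulated and 0 upregulated, with a median of -0.41. *EEF1G* in this list had at most 4 counts in any library. *HNRNPA1*, an RNA-binding protein (log2 fold change -1.88), *EEF1B2*, an exchange factor of elongation (-1.07), and *EIF3E*, an initiation factor subunit (-0.83), had the smallest adjusted *p* values. The elongation factors *EEF1A1* (-0.33) and *EEF2* (0.02) did not pass.

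Of 43 assembly and nucleolar factors, 23 were downregulated and 1 upregulated, with a median log2 fold change of -0.65. The shares over all genes were 19.1% and 16.1%. *FBL*, the methyltransferase of ribosomal RNA, went from 10022 to 2046 counts (BT-16) and from 7588 to 1565 (CHLA-266) (log2 fold change -2.04, standard error 0.18). It had the smallest adjusted *p* of the list, followed in that order by *MRTO4* (-1.42), which holds the place of the stalk base during assembly, and *NOP58* (-1.47), a partner of FBL, and *NCL* (-1.07) and *NPM1* (-1.16) fell as well. *RRP12*, a factor of subunit export, was the upregulated gene (0.71). Of 20 genes of RNA polymerase I and its factors, 10 were downregulated and 1 upregulated, with a median of -0.53, among them the initiation factor gene *UBTF* (-1.21) and the subunit gene *POLR1F*, which rose (1.17).

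Of 13 genes of the control of ribosomal protein messengers, 6 were downregulated and 0 upregulated, with a median of -0.47. Over all genes 19.1% were downregulated. With the block 10 of the list were downregulated, against 23.7% of all genes. *EIF4EBP1*, a repressor of cap-dependent translation under mTOR, went from 6004 to 928 counts (BT-16) and from 4086 to 1011 (CHLA-266) (log2 fold change -2.11, standard error 0.20). *EIF4EBP2* (-0.92), *RHEB* (-0.56), the activator of mTOR, *MTOR* (-0.53) and *MYC* (-0.59) fell as well, and *LARP1* did not pass (-0.10). The list thus held both activators and repressors among the genes that fell.

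The mitochondrial ribosome, which translates the mitochondrially encoded messengers, has its own nuclear-encoded proteins. Of 76 genes tested, 54 were downregulated and 0 upregulated, with a median log2 fold change of -0.84, where 19.1% of all genes were downregulated. *MRPL1* went from 8889 to 2108 counts (BT-16) and from 6718 to 1573 (CHLA-266) (log2 fold change -1.83, standard error 0.18), and had the smallest adjusted *p* of the list, followed in that order by *MRPL24* (-1.59) and *MRPL11* (-1.81). Only 8.70% of 69 of these genes with a promoter entry had a TOP-like start, close to the 5.14% of the 27305 genes with an entry. The mitochondrial list thus had a lower median than the core cytosolic genes, a difference that was not tested.

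The counts of these lists depended on the scaling too. With upper-quartile normalization 3 of the 14 genes of the TOP list, 15 of the 43 assembly factors and 5 of the 20 RNA polymerase I genes were downregulated. So were 2 of the 13 control genes and 31 of the 76 mitochondrial genes. In the same fit 4 assembly factors, 2 RNA polymerase I genes and 1 mitochondrial gene were upregulated. Over all genes tested 10.5% were downregulated and 24.1% upregulated with that scaling. The medians of these 5 lists stayed below 0, from -0.06 for the TOP list to -0.49 for the mitochondrial genes, while that of all genes was 0.59.

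**Figure D5:**
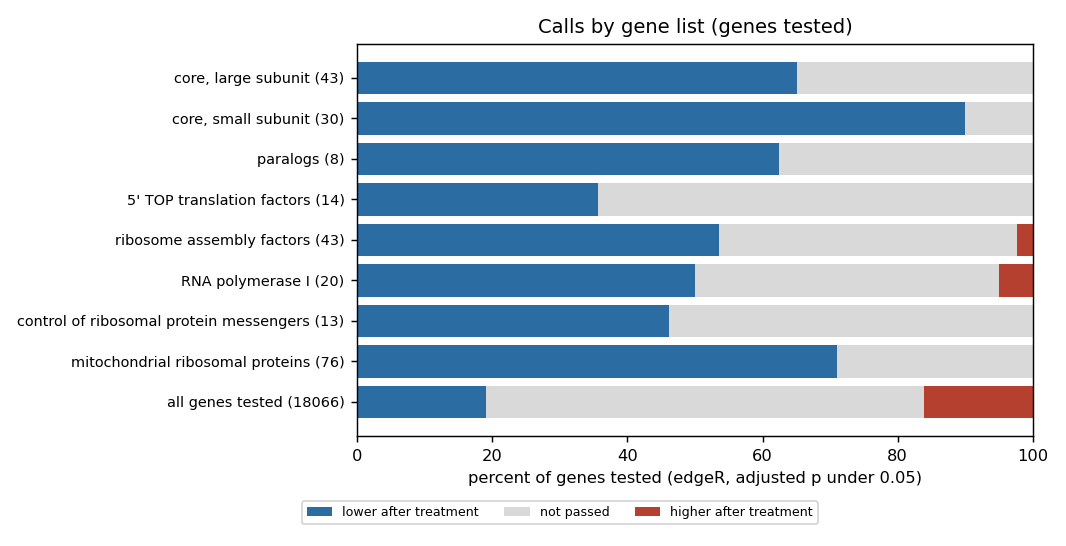
Percent of genes tested that were downregulated (blue), upregulated (red) or did not pass (gray) after treatment in edgeR with TMM, for the core genes by subunit, the paralogs and 5 other lists, with all genes tested at the bottom and the number of genes in brackets. The large subunit had 28 of 43, the small subunit 27 of 30 and the mitochondrial ribosomal proteins 54 of 76 genes downregulated, against 19.1% of all genes. With upper-quartile normalization 13 of the 73 core genes were downregulated (7 of 43 large and 6 of 30 small subunit), against 10.5% of all genes.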

How the data were processed

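Per the labels, the authors made the deposited table of estimated counts, which is not normalized, from reads demultiplexed with bcl2fastq 2.20 and aligned to hg38 with STAR. Libraries were made with the SMART-Seq Stranded kit. The strand setting of the counting and the treatment of reads with several matches are not given in the sources used here. All values of the members were whole, and 5 values in 2 other genes were rounded. A second deposited table, of log2 values after the variance-stabilizing transformation (VST) of the authors, holds 17553 genes, 80 of them members, and entered 1 alternative only.

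Members and lists were chosen with earlier results of these data known. The test was edgeR 4.0.16 (quasi-likelihood, TMM, Benjamini-Hochberg) in R 4.3.3 on condition alone, over the 18066 symbols left after 383 of 18449 with no count were dropped. Alternatives used the line as a block, DESeq2 1.42.0, limma 3.58.1, other scalings and filters, and each library left out. The cell line pairs the libraries, and deviations within a line correlated at 0.321 over 12620 genes. Standard errors were derived from the *F* statistic. Log2 ratios within a line had 0.5 counts added. Exon and coding lengths came from GENCODE 44, and because canonical exons include long untranslated ends in some genes, levels used coding length. The scripts were tested on simulated data. The paper states that genes counted repeatedly and genes of the sex chromosomes were removed. Paralog and parent were compared in the 5 pairs with both genes among the 83 symbols. Named were all paralogs and the parents of these pairs, the 5 lowest and 5 highest core genes, and the highest 3 and lowest 2 of each subunit by level. Fixed genes of known role, core genes that did not pass, and of each other list the genes of smallest adjusted *p* were named too. *NCL*, *NPM1*, *EEF1A1*, *EEF2*, *LARP1* and *MTOR* were named for their role after their values were seen. Genes of the rule that are not among the 83 symbols were not analysed here, and results that need some other genes are not reported here.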

Additional observations from a re-analysis of the deposited data

Results flagged for a closer look

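*RPL22* and *RPL13A* were the core genes with opposite signs in the cell lines. The log2 ratio of treated to untreated TMM-normalized counts of *RPL22* was -0.25 for BT-16 against 0.040 for CHLA-266. For *RPL13A* it was -0.47 against 0.022 in the same order. With 1 library per line and condition the difference between the lines was not tested.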

How the results depend on the processing

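The number of downregulated members was 60 and became 18 with upper-quartile normalization, 35 with library totals and 24 to 56 without single libraries, the lowest without untreated BT-16. The share of all genes moved too, from 19.1% to 10.5%, 13% and 12.9% to 18.8%. The median log2 fold change of the core genes (-0.68) was -0.33 with upper-quartile normalization, -0.44 with library totals, -0.49 with at least 10 counts in every library, -0.61 in DESeq2 with or without the replicate block and with its size factors in edgeR, -0.60 in limma on VST values, and -0.78 to -0.58 without single libraries. Its distance to the median of all genes (-0.92, added after seeing the data) was -0.50 with at least 10 counts, -0.75 with filterByExpr, -0.76 in limma and -1.01 to -0.82 without single libraries. With the block, no call of a named member was lost and 10 that had not passed did. Library totals called 5 members lower in CHLA-266, a fit for which the share of all genes was not computed. Without single libraries the log2 ratio to the parent ran from -0.31 to 0.27 for *RPS27L*, -0.054 to 0.038 for *RPL7L1* and -0.051 to 0.12 for *RPL3L*, whose means were near 0. Upper-quartile normalization made the log2 fold change positive in *RPL11* (0.10), *RPL12* (0.22), *RPL13A* (0.12), *RPL14* (0.089), *RPL22* (0.24), *RPL26* (0.032), *RPL28* (0.031) and *RPS10* (0.080). Library totals did so in *RPL12* (0.10) and *RPL22* (0.12), as did at least 10 counts (0.055 and 0.079). Without single libraries *RPL12* ran from -0.26 to 0.012 and *RPL22* from -0.21 to 0.011. The cause of these changes was not tested. None of these genes passed the test in any of these fits. Of 582 values of named genes under the alternatives, 499 kept direction and call, 42 lost the call, 27 gained it and 14 changed sign. Depth limits *RPL3L*, *RPL10L* and the readthrough genes.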
